A study of Mus musculus with 9 samples.

Results

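A set of 10 genes that mark dermal adipocytes, the fat cells that lie beneath the dermis of mouse skin, was followed across 9 skin libraries. The genes are Adipoq, Lep, Retn, Cfd, Plin1, Cidec, Fabp4, Lpl, Pparg and Car3. They were chosen by symbol as known adipocyte genes and found as 10 of the 55382 genes in the table, and all 10 passed the filter on low values that left 14254 genes for testing. No value of the table entered the rule, but the members were chosen with earlier results of these data known. In GRCm38 all 10 are annotated as protein coding, with Lep, Cidec and Pparg on chromosome 6, Fabp4 and Car3 on chromosome 3, Retn and Lpl on chromosome 8, and Plin1, Cfd and Adipoq on chromosomes 7, 10 and 16.

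The skin came from female C57BL/6 mice in 3 groups of 3 libraries. In the EXO group the mice had first been given bleomycin, a chemotherapy drug that leaves scarred tissue, under shaved back skin (1 mg/mL, 100 µL, over 28 days) to model fibrosis. They then received 15 µg of exosomes from bone marrow mesenchymal stem cells in 100 µL. The BLM group received the same bleomycin course without exosomes, and the NORMAL group had no fibrosis model. By the study's methods, PBS replaced the vesicles in BLM mice and bleomycin in NORMAL mice, whereas the labels list the BLM treatment as none and the NORMAL treatment as PBS. The study's results give 7 days of treatment for the sequenced skin, whereas its methods state a longer time from treatment to tissue collection. Library 3 of each group is the sample whose title carries no number. Whether the 3 libraries of a group were 3 different mice is not stated, and the p-values therefore reflect only the variation among these samples, part of which may be technical.

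Adipocytes store triglyceride in a single large lipid droplet and release fatty acids and hormones. In mouse skin they form a layer of their own, which thickens and thins with the hair cycle and is known to shrink in fibrotic skin. PPARγ and the C/EBP factors switch on the genes of the mature cell, among them droplet coat proteins, fatty acid carriers and secreted adipokines. Several of these genes are not private to adipocytes. Fabp4 is also made by capillary endothelium and macrophages, Lpl by muscle and macrophages, Pparg by sebocytes and macrophages, and Car3 by skeletal muscle.

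Binding motifs of PPARγ and the C/EBP factors were looked for in the promoter windows at hand from RefSeq, build GRCm38.p6. A window ran from 250 bases before to 50 bases after a start site. The 10 windows belong to 7 genes, Adipoq, Lep, Retn, Cfd, Plin1, Cidec and Pparg. The promoters of Fabp4, Lpl and Car3 were not analysed here, as no window for them was at hand. The C/EBP motif TTGCGCAA, with 1 mismatch allowed on both strands, was found in 3 of the 10 windows, against 5.92% of all 32851 windows. Exact matches were in 1 of the 10 windows, that of Lep, against 0.183% of all windows. The stretches that hold the matches are given 5′ to 3′ on the strand of the gene, with the matched 8 bases in capitals. They lie at chr6:29060130-29060209 (plus strand) for Lep, chr7:79732791-79732870 (minus strand) for Plin1 and chr6:113434919-113434998 (minus strand) for Cidec.
Lep: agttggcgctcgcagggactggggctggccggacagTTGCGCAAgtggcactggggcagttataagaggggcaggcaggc
Plin1: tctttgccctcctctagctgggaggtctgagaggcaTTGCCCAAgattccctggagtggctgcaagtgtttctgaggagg
Cidec: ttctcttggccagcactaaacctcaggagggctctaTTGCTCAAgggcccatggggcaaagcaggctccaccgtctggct
The match began 55 bases before the start site in Lep, 58 bases before it in Plin1 and 198 bases before it in Cidec (the downstream one of 2 windows), where the Plin1 and Cidec stretches each differ from the motif at 1 base. The PPARγ:RXR motif, AGGTCA repeated after 1 base, with up to 2 mismatches in its 12 letters on both strands, was in 0 of the 10 windows, against 3.86% of all windows. TATAAA on either strand was in 1 of the 10, a window of Pparg, against 13.6% of all windows. A match is a description of the letters in the window only.

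Levels are given as FPKM, a fragment number divided by transcript length and by the total of the library, so levels can be compared between genes. The means of the 9 libraries ran from 768 FPKM for Car3 and 196 FPKM for Cfd, through 57.0 FPKM for Fabp4, 20.1 for Lpl, 16.6 for Adipoq, 15.8 for Cidec and 10.7 for Retn, down to 2.73 for Plin1, 2.59 for Pparg and 1.17 for Lep. The members together took 0.0638% to 0.521% of all FPKM in a library, and 0.0243% to 0.164% without Car3. The table gives no counts and the depth of each library was not estimated here, so the number of fragments behind the low levels of Plin1, Pparg and Lep is unknown.

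**Figure D1:**
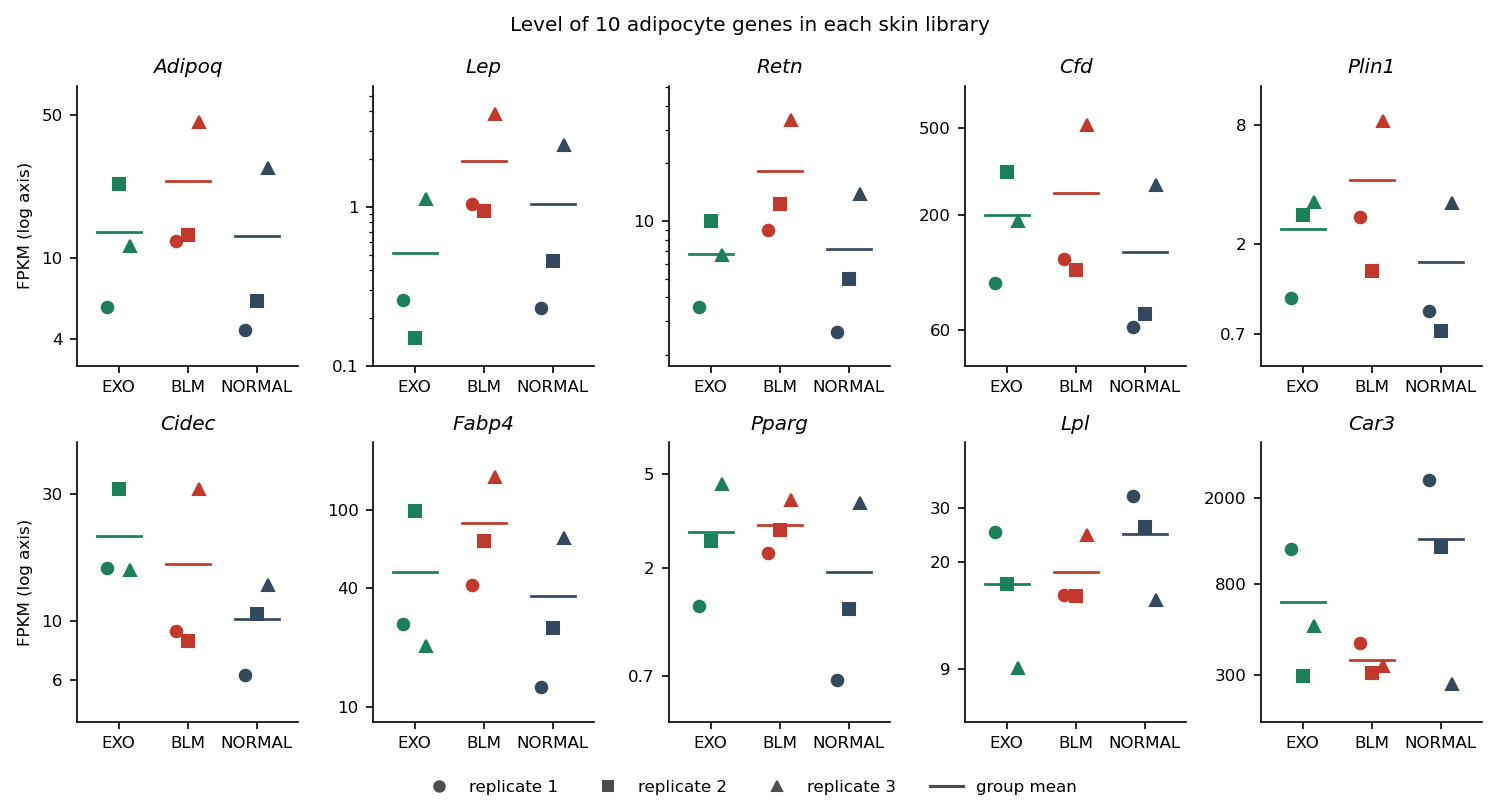
Level of each of the 10 genes in FPKM (log axis, its range set for each gene) in the 3 libraries of EXO, BLM and NORMAL. Symbols mark the replicate number and bars the group mean. BLM3 is the highest library for 7 genes, Pparg is highest in EXO3, and Lpl and Car3 are highest in NORMAL1.

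The secreted products of adipocytes spread over a wide range within each group. Adipoq, which encodes the insulin-sensitising hormone adiponectin, had 5.78, 23.06 and 11.44 FPKM in EXO1 to EXO3, 12.09, 12.93 and 46.11 FPKM in BLM1 to BLM3, against 4.46, 6.19 and 27.63 FPKM in NORMAL1 to NORMAL3. BLM3 and NORMAL3 were the highest libraries of Adipoq, and the 3 groups overlapped. Lep, the gene of the satiety hormone leptin, had 0.26, 0.15 and 1.12 FPKM in EXO, 1.04, 0.94 and 3.86 FPKM in BLM, and 0.23, 0.46 and 2.45 FPKM in NORMAL. Its level passed 1 FPKM in 4 libraries, and library 3 was the highest of each group. Retn, the gene of the adipokine resistin, had 3.57, 9.98 and 6.69 FPKM in EXO, 8.95, 12.28 and 33.81 FPKM in BLM, and 2.64, 4.96 and 13.77 FPKM in NORMAL. All 3 BLM libraries of Retn lay above EXO1, EXO3, NORMAL1 and NORMAL2, while EXO2 lay above BLM1, and NORMAL3 above BLM1 and BLM2. Cfd, which encodes adipsin (complement factor D), had 98.12, 316.54 and 188.34 FPKM in EXO, 125.7, 112.27 and 518.52 FPKM in BLM, and 61.71, 71.0 and 274.58 FPKM in NORMAL. Here EXO2 and EXO3 stood above BLM1 and BLM2, and BLM3 above both.

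The droplet proteins gave the only pair of groups without overlap. Plin1, the gene of perilipin 1, the coat protein that guards the droplet from lipases, had 1.07, 2.8 and 3.26 FPKM in EXO, 2.73, 1.47 and 8.38 FPKM in BLM, and 0.92, 0.73 and 3.24 FPKM in NORMAL. Cidec, whose product fuses small droplets into large ones, had 15.85, 31.23 and 15.56 FPKM in EXO, 9.14, 8.4 and 31.34 FPKM in BLM, and 6.23, 10.59 and 13.59 FPKM in NORMAL. The lowest EXO library of Cidec thus lay above the highest NORMAL library, and BLM1 and BLM2 lay within the NORMAL range while BLM3 reached the level of EXO2.

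Among the genes of fatty acid handling, Fabp4 followed the secreted genes and Lpl did not. Fabp4, an intracellular fatty acid carrier, had 26.26, 98.97 and 20.25 FPKM in EXO, 41.64, 69.43 and 146.34 FPKM in BLM, and 12.59, 25.25 and 71.95 FPKM in NORMAL. EXO3, a middle library for Adipoq and Cfd, was the second lowest of the 9 for Fabp4. Lpl, the lipase that frees fatty acids from circulating lipoproteins, had 25.11, 16.98 and 9.04 FPKM in EXO, 15.62, 15.49 and 24.56 FPKM in BLM, and 32.85, 26.1 and 15.05 FPKM in NORMAL. NORMAL1, the lowest library of 6 other members, was the highest of Lpl.

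Pparg, the gene of the nuclear receptor that drives fat cell differentiation, varied less in BLM, where it had 2.32, 2.88 and 3.86 FPKM, than in EXO with 1.38, 2.59 and 4.52 FPKM or NORMAL with 0.67, 1.34 and 3.76 FPKM. The gene Gm44079 overlaps Pparg on the opposite strand in the annotation, and the strand setting of the counting is not given in the sources used here. Car3, a carbonic anhydrase abundant in fat and muscle, had 1158.21, 296.33 and 505.53 FPKM in EXO, 422.72, 305.35 and 330.67 FPKM in BLM, and 2436.0, 1188.85 and 271.7 FPKM in NORMAL. The BLM libraries of Car3 differed by only 1.38-fold, against 8.97-fold in NORMAL.

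Each gene was also set against its own mean over the 9 libraries, as log2(FPKM + 1) minus that mean. In this view 8 of the 10 genes formed a pattern that Car3 and Lpl did not share. Across libraries the correlation of a gene with the mean of the other 9 members was 0.946 for Adipoq, 0.927 for Cfd, 0.905 for Retn, 0.902 for Plin1, 0.805 for Fabp4, 0.730 for Lep, 0.708 for Cidec and 0.662 for Pparg (Pearson's r, n = 9 libraries). It was -0.27 for Lpl and -0.81 for Car3. These values are descriptions, since genes of a library share its RNA and its total. Between single pairs of the 8 genes r ran from 0.309 to 0.957 with a median of 0.793 (28 pairs).

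**Figure D2:**
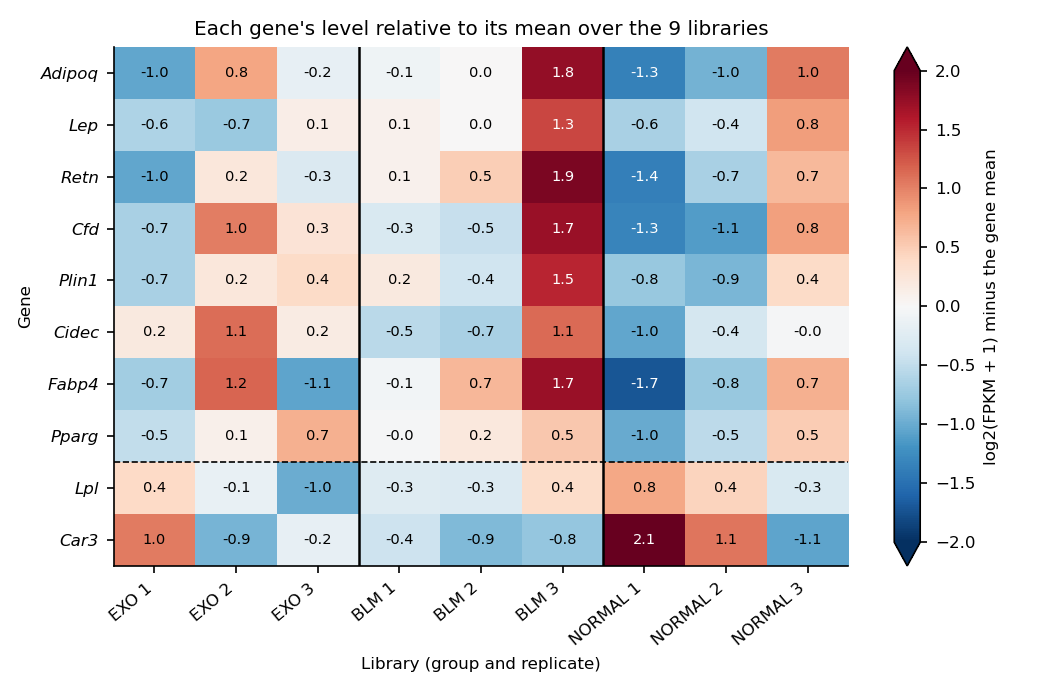
Level of each gene (rows) in each library (columns) as log2(FPKM + 1) minus the gene's mean over the 9 libraries. Solid lines separate EXO, BLM and NORMAL, and the dashed line sets off Lpl and Car3. Car3 runs opposite to the 8 genes above and Lpl only weakly so, most plainly in NORMAL1. In BLM3 Lpl lies above its mean, as do the 8 genes.

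Averaged over the 8 genes, the level relative to the mean was -0.63, 0.49 and 0.02 in EXO1 to EXO3, -0.08, -0.02 and 1.45 in BLM1 to BLM3, against -1.15, -0.71 and 0.62 in NORMAL1 to NORMAL3, all on the log2 scale. BLM3 was the highest library for 7 of the 8 genes, and NORMAL1 the lowest for 6. NORMAL3 was the highest NORMAL library for 8 of the 8 genes. NORMAL1 stood among the 3 lowest of the 9 libraries for 8 of them, and NORMAL2 for 6. The range within each group was wider than the distance between any pair of group means. In bulk tissue, fewer adipocytes and less RNA per adipocyte cannot be told apart.

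Whether bleomycin changed the adipocyte genes was asked in BLM against NORMAL. None of the 10 passed the test of limma, a linear model fitted across all genes, at an adjusted p below 0.05 (Benjamini-Hochberg over 14254 genes), and 0 had an unadjusted p below 0.05. Over all genes 0.014% passed the adjusted threshold and 7.37% the unadjusted one. The fitted log2 changes were positive for 8 members and negative for 2, with a median of 0.72 against -0.03 over all genes tested. Leaving out BLM3 gave a median of 0.24, leaving out NORMAL1 one of 0.36 and leaving out NORMAL3 one of 1.14. Retn had a log2 change of 1.28 (SE 0.62, adjusted p = 0.695 by limma) and Fabp4 one of 1.36 (SE 0.74, adjusted p = 0.745). The largest negative value was that of Car3, -1.40 (SE 0.74, adjusted p = 0.734). The other 7 lay between -0.36 for Lpl and 0.98 for Adipoq. Intervals of 95% reached from -0.08 to 2.64 for Retn and from -0.62 to 2.58 for Adipoq, so neither no change nor a large rise lay outside them.

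Libraries given the same number here deviated together from their group means, number 3 being the sample of each group without a number in its title. Within same-numbered pairs BLM lay above NORMAL in all 3 pairs for 7 of the 10 members, against 16.6% of all genes tested. These were Adipoq, Lep, Retn, Cfd, Plin1, Fabp4 and Pparg. The 7 genes are not independent, as the correlations above show. For Cidec this held in 2 pairs, for Lpl and Car3 in 1 pair. With the replicate number as a block in the fit, 0 members passed the adjusted threshold, against 0.421% of all genes, and 3, namely Retn, Plin1 and Car3, had an unadjusted p below 0.05, against 15.3% of all genes. The smallest adjusted p in that fit was 0.202, for Retn. The groups overlapped for 10 of the 10 members, while they did not overlap for 10.4% of all genes.

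The question whether exosome treatment altered the same genes was addressed by EXO against BLM. No member passed the adjusted threshold, against 0.014% of all genes, and 0 had an unadjusted p below 0.05, against 6.84%. The fitted log2 changes were negative for 8 members and positive for 2, Cidec and Car3. Compared with BLM against NORMAL, the sign differed for 8 members, while Cidec was positive and Lpl negative in both comparisons. The median log2 change was -0.32 against 0.22 over all genes. As both comparisons use the same BLM libraries, BLM3 among them, their signs are not independent. Retn had a log2 change of -1.19 (SE 0.62, adjusted p = 0.771), Fabp4 one of -0.98 (SE 0.74, adjusted p = 0.822) and Lep one of -0.88 (SE 0.49, adjusted p = 0.776), while Cidec had 0.51 (SE 0.54, adjusted p = 0.874), all by limma.

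Lep and Retn lay lower in EXO than in BLM in all 3 same-numbered pairs, which is 2 of 10 members against 7.16% of all genes. They were also the 2 members with an unadjusted p below 0.05 when the replicate number was a block, against 15.5% of all genes. Their adjusted p values in that fit were 0.173 for Lep and 0.217 for Retn, and 0 members passed, against 0.0772% of all genes. The EXO and BLM groups overlapped for 10 of 10 members, against 14% of all genes without overlap. Without BLM3, the members' median was 0.014, the fitted change of Cfd turned to 0.60, that of Plin1 to 0.087, that of Lpl to 0.018 and that of Pparg to 0.0096. The signs of Cfd and Pparg also turned without EXO1, to 0.33 and 0.16, and that of Lpl without EXO3, to 0.18.

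**Figure D3:**
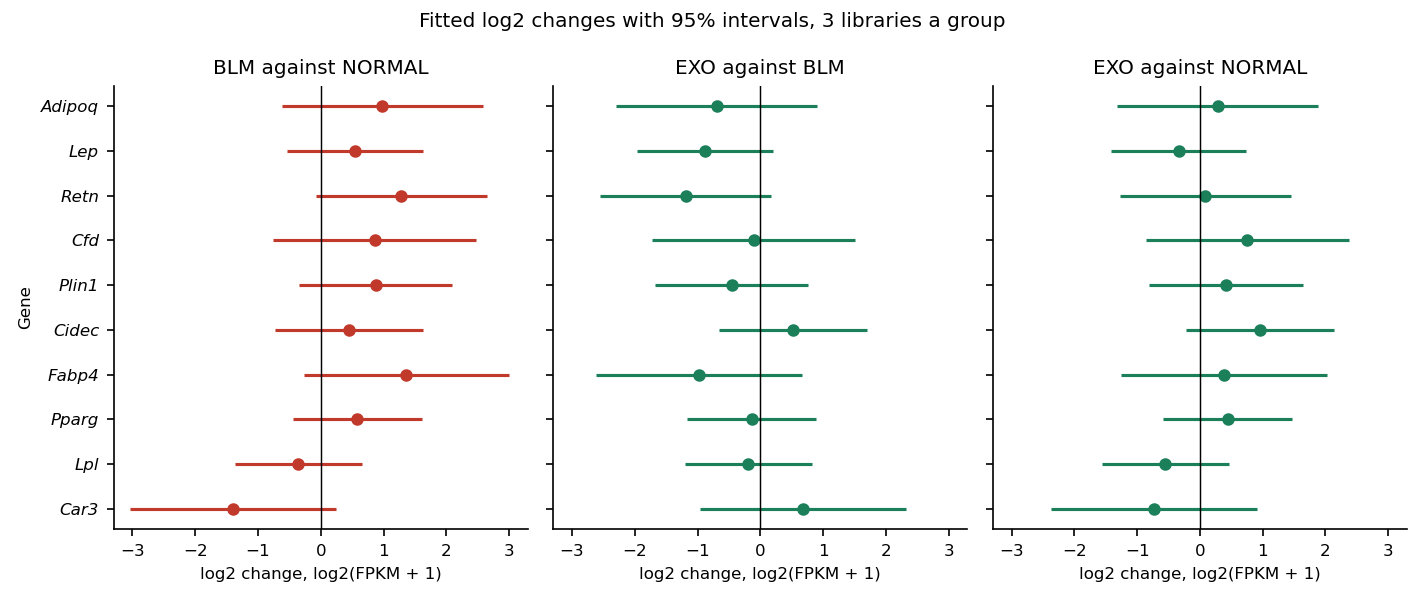
Fitted log2 change of each gene on the log2(FPKM + 1) scale (points) with 95% intervals (lines) in BLM against NORMAL, EXO against BLM and EXO against NORMAL. All 30 intervals contain 0, and that of Retn in BLM against NORMAL comes nearest to leaving it out.

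EXO and NORMAL skin were then compared. No member passed, as no gene in the table did (0%), and 0 members had an unadjusted p below 0.05, against 2.33% of all genes. Of the 10 fitted changes 7 were positive, with a median of 0.33 against 0.17 over all genes, and the median was -0.17 without EXO2 and -0.10 without NORMAL1. Cidec had the highest, 0.96 (SE 0.54, 95% interval -0.22 to 2.14, adjusted p = 0.997 by limma), with each EXO library above each NORMAL library. That made 1 of 10 members without overlap, against 5.57% of all genes. Cidec, Plin1 and Pparg lay higher in EXO in all 3 same-numbered pairs, 3 of 10 against 27.7% of all genes, which is near the background. With the replicate block 0 members passed, against 0.021% of all genes, and 0 had an unadjusted p below 0.05, against 7.6%.

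The makeup of the 8-gene pattern was then read within each library, by subtracting the mean log2(FPKM + 1) of the 8 genes from each member's own value. This measure, chosen after the values had been seen, takes out what the 8 genes share. Retn stood at -0.69, -0.54 and -0.59 in EXO, at -0.11, 0.24 and 0.16 in BLM, and at -0.50, -0.23 and -0.24 in NORMAL. The BLM values of Retn lay above all NORMAL values, and the EXO values below all BLM and all NORMAL values. Cidec stood at 1.19, 1.01 and 0.52 in EXO, at -0.09, -0.26 and 0.05 in BLM, and at 0.49, 0.73 and -0.26 in NORMAL, so that EXO did not overlap with BLM. Lep stood at -2.55, -3.80 and -2.45 in EXO, at -2.40, -2.54 and -2.68 in BLM, and at -2.06, -2.25 and -2.34 in NORMAL, with both EXO and BLM below NORMAL.

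Counted over the members, 2 of 10 did not overlap in BLM against NORMAL, where 10% of all genes did not, and 2 of 10 in EXO against BLM, where 10.2% did not. In EXO against NORMAL the count was 2 of 10 against 1.53%. Without the subtraction, 5.57% of all genes did not overlap in that comparison. The members counted, Retn, Lep and Cidec, are themselves part of the subtracted mean, and most other genes are not. The shares of all genes are therefore not a like background, and no excess can be read from these counts. With a pseudocount of 0.1 in place of 1, Retn and Cidec kept their separations from BLM and Retn its separation of BLM from NORMAL, the one of Retn between EXO and NORMAL was lost with both of Lep, and Cfd lay higher in EXO than in both other groups.

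**Figure D4:**
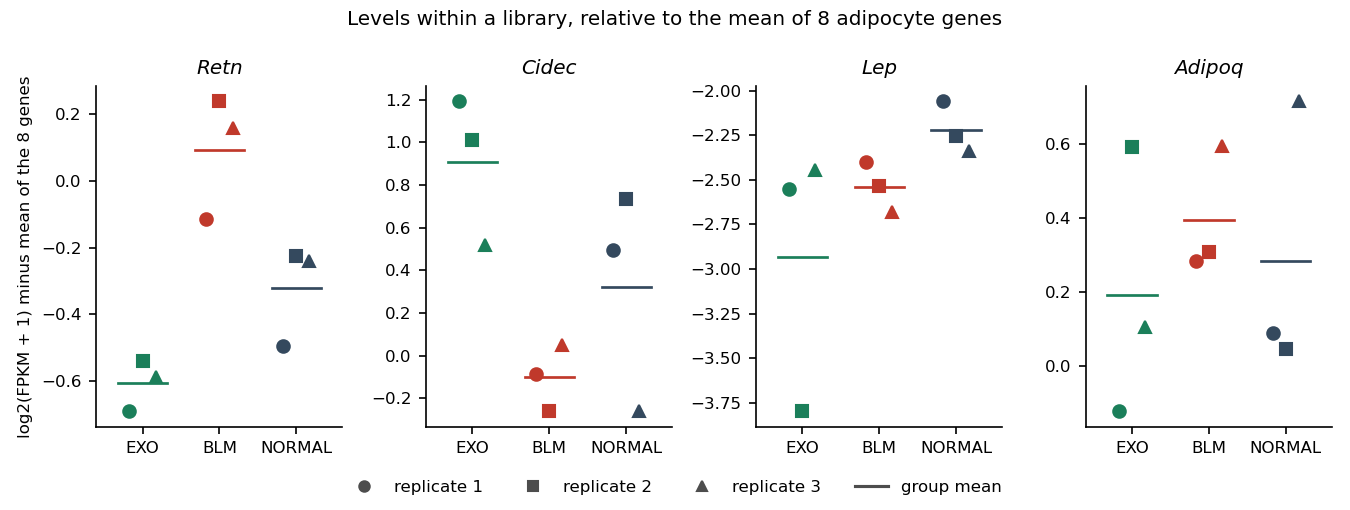
Retn, Cidec, Lep and Adipoq in each library as log2(FPKM + 1) minus the mean of the 8 adipocyte genes, with bars at the group means and an axis range set for each gene. Retn is highest in the 3 BLM libraries and lowest in the 3 EXO libraries, while Adipoq overlaps between all groups.

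Car3 and Lpl, the 2 members outside the pattern, were highest in NORMAL1, NORMAL2 and EXO1. These 3 libraries also held the most skeletal muscle RNA. The sum of 20 muscle markers was 58838, 11275 and 17606 FPKM in EXO1 to EXO3, 15504, 12481 and 8363 FPKM in BLM1 to BLM3, and 82505, 63114 and 12186 FPKM in NORMAL1 to NORMAL3, and none of the 20 was at 0 in all libraries. Acta1, the actin of skeletal muscle, had 1691 to 19396 FPKM. Across the 9 libraries r with the muscle sum was 0.968 for Car3 and 0.607 for Lpl, and -0.55 to -0.91 for the other 8 members. BLM3, with the lowest muscle sum, had 24.56 FPKM of Lpl, near the 25.11 FPKM of EXO1. Slow muscle markers, 9 genes, summed to 99.0 to 604 FPKM in EXO, 90.1 to 144 FPKM in BLM and 83.2 to 183 FPKM in NORMAL. Their r was lower, 0.576 with Car3 and 0.412 with Lpl. The slow sum was highest in EXO1, whereas Car3 and Lpl were highest in NORMAL1. The part of muscle in the members' values was not tested.

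**Figure D5:**
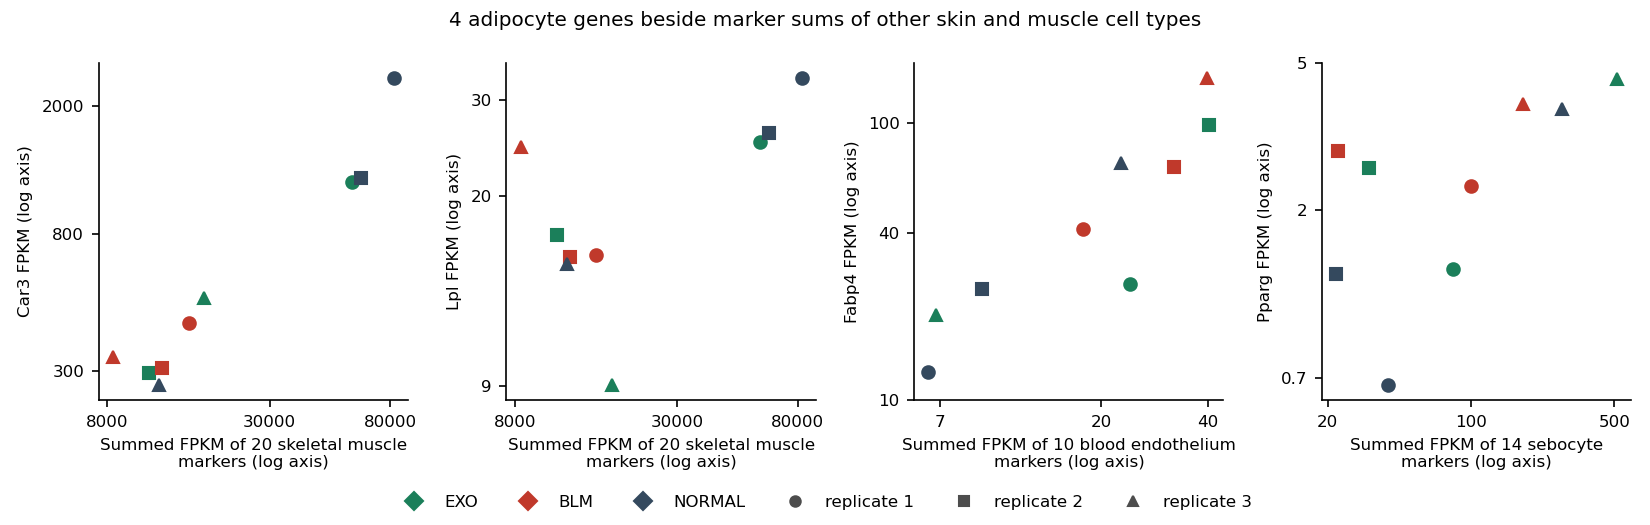
Level of Car3, Lpl, Fabp4 and Pparg in each library (vertical log axes, FPKM) against the summed FPKM of markers of skeletal muscle, blood endothelium or sebocytes (horizontal log axes). Colours mark the group and symbols the replicate number. The 3 libraries with the highest muscle sums also have the highest Car3 and Lpl. For Lpl, BLM3 lies close to EXO1 although its muscle sum is the lowest.

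Fabp4 was low in EXO3, and so were markers of blood endothelium. The sum of 10 endothelial markers was 24.1, 40.5 and 6.86 FPKM in EXO1 to EXO3, 17.8, 32.2 and 39.9 FPKM in BLM1 to BLM3, and 6.51, 9.21 and 22.8 FPKM in NORMAL1 to NORMAL3, with none at 0 in all libraries. Its r with Fabp4 was 0.901, the highest of any marker list with that gene. With the other 7 genes of the pattern it was 0.693 for Adipoq, 0.692 for Retn, 0.635 for Cfd, 0.606 for Cidec, 0.471 for Plin1, 0.387 for Pparg and 0.311 for Lep. Pecam1 and Cdh5, which define the cell type, were at 0.8 and 0.41 FPKM in EXO3. Macrophage markers, another source of Fabp4, summed to 88.9 to 852 FPKM in EXO, 134 to 632 FPKM in BLM and 278 to 575 FPKM in NORMAL, with an r of 0.382. The part of either cell type in the level of Fabp4 was not tested.

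Pparg was highest in EXO3, the library with the most sebocyte RNA. The sum of 14 sebocyte markers was 81.3, 31.7 and 517 FPKM in EXO, 99.4, 22.4 and 180 FPKM in BLM, and 39.4, 22.0 and 279 FPKM in NORMAL. Its r with Pparg was 0.655, near that with Plin1 (0.641) and Lep (0.627). Markers of the growing hair follicle, whose cycle the fat layer follows, summed to 21.4 to 32.7 FPKM in EXO, 230 to 1307 FPKM in BLM and 7.59 to 379 FPKM in NORMAL. Shh, made by growing follicles, had 0.29, 0 and 0.26 FPKM in EXO, 14.29, 5.74 and 17.23 FPKM in BLM, and 0.15, 0 and 0.22 FPKM in NORMAL. The r of the follicle sum was highest with Lep (0.789) and Retn (0.778) and 0.157 with Cidec. The part of sebocytes and of hair growth was not tested.

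Other markers and shares bore on the libraries as a whole. Mitochondrial transcripts took 18.7% to 34.4% of FPKM in EXO, 27.8% to 50.9% in BLM and 19.1% to 22.7% in NORMAL. The total FPKM differed as well, from 412693 in EXO3 to 849164 in BLM2, the library with the highest mitochondrial share. The effect of these transcripts on the FPKM of other genes was not tested. Liver markers summed to 288 FPKM in EXO2, 397 in BLM2 and 1750 in NORMAL2, against 5.33 to 21.9 FPKM in the 6 other libraries. Most of these 3 sums came from Hpx, Fgb and Cyp2e1. Alb, which defines the cell type, had 306.12 FPKM in NORMAL2 but 1.43 in EXO2 and 0 in BLM2. Other genes of the list went the other way, with Apoa2, Ahsg, Apoc3, Serpina1a and Ttr at 0 FPKM in NORMAL2. The source of these transcripts was not tested. Without the libraries numbered 2, no member passed in any comparison, and the fitted change in EXO against NORMAL turned to -0.45 for Adipoq, -0.39 for Fabp4 and -0.31 for Retn. Mammary markers, 9 genes, summed to 0.22 to 22.7 FPKM and 3 of them were at 0 in all libraries.

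The wider adipocyte programme was read from 10 lists of genes, in which 0 genes passed the test in any comparison or direction. Over all genes tested, 47.3% had positive changes in BLM against NORMAL (median -0.03) and 68.8% in EXO against BLM (median 0.22), and counts of positive genes are to be read against these shares. Among adipogenic transcription factors, 13 tested, 5 had positive and 8 negative changes in BLM against NORMAL with a median of -0.15. Cebpa, the C/EBP factor of mature fat cells, had 23.61, 37.53 and 55.26 FPKM in EXO, 30.16, 20.48 and 57.63 FPKM in BLM, and 17.89, 27.79 and 53.73 FPKM in NORMAL, highest in library 3 of each group as Pparg was. Rxra, the partner of PPARγ, had 20.03 to 38.98 FPKM in EXO, 8.03 to 24.41 FPKM in BLM and 10.83 to 31.69 FPKM in NORMAL.

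Lipid droplet proteins, 15 tested with Plin1 and Cidec among them, were positive for 13 in EXO against BLM with a median of 0.51 against 0.22 over all genes, and for 5 in BLM against NORMAL with a median of -0.45. The list thus leaned the other way from Plin1, and the same way as Cidec in EXO against BLM. Of the 20 skeletal muscle markers, 19 were positive in EXO against BLM and 0 in BLM against NORMAL. Fitm1 of the list had 185.53 FPKM in EXO1, 203.02 in NORMAL1 and 126.89 in NORMAL2, the libraries with the highest muscle sums. In the other libraries it had 13.64 to 36.42 FPKM. The part of muscle in the lean of the list was not tested. Cavin1, a caveola protein of the list, had 67.36 to 115.51 FPKM in EXO, 51.2 to 77.32 FPKM in BLM and 69.4 to 92.73 FPKM in NORMAL. Cidea, a relative of Cidec that sebocytes also make, had 0.74 to 106.25 FPKM in EXO, 1.49 to 22.87 FPKM in BLM and 1.6 to 52.27 FPKM in NORMAL, highest in EXO3.

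Lipolysis genes, 8 tested, were positive for 7 in EXO against BLM (median 0.27) and for 3 in BLM against NORMAL (median -0.28). Pnpla2, the lipase that takes the first step of triglyceride breakdown, had 23.86 to 64.34 FPKM in EXO, 19.24 to 32.06 FPKM in BLM and 24.65 to 41.66 FPKM in NORMAL. Triglyceride synthesis genes, 9 tested, were positive for 8 in EXO against BLM (median 0.27) and for 2 in BLM against NORMAL (median -0.45). Gpd1, which makes glycerol phosphate and is also a muscle enzyme, had 15.65 to 51.58 FPKM in EXO, 20.48 to 26.64 FPKM in BLM and 21.48 to 131.02 FPKM in NORMAL, highest in the NORMAL1 library where Car3 was highest.

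Fatty acid uptake genes, 12 tested with Fabp4 and Lpl among them, had a median of 0.01 in BLM against NORMAL and 0.13 in EXO against BLM. Fabp5, the epidermal relative of Fabp4, had 18.12, 9.99 and 117.62 FPKM in EXO, 78.49, 19.17 and 155.78 FPKM in BLM, and 4.77, 2.53 and 81.6 FPKM in NORMAL. It was high in EXO3, where Fabp4 was low. Fatty acid synthesis genes, 14 tested, were positive for 10 in BLM against NORMAL (median 0.65) and for 6 in EXO against BLM (median -0.05). Scd1, a desaturase strongly expressed in sebocytes, had 26.2 to 435.9 FPKM in EXO, 32.38 to 131.68 FPKM in BLM and 16.47 to 237.33 FPKM in NORMAL, with its peak in EXO3.

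Secreted proteins, 13 tested with Adipoq, Lep, Retn and Cfd among them, had a median of -0.11 in BLM against NORMAL and -0.01 in EXO against BLM. Rbp4, the retinol carrier made by fat and liver, had 374.81 FPKM in EXO2, 653.16 FPKM in BLM2 and 2321.94 FPKM in NORMAL2, against 1.26 to 5.23 FPKM in the 6 other libraries. It thus followed Hpx and Fgb of the liver list and not Adipoq. Genes of insulin signalling, 9 tested, had medians of -0.13 in BLM against NORMAL and 0.11 in EXO against BLM. Slc2a4, the insulin-dependent glucose carrier of fat and muscle, had 0.5 to 68.64 FPKM in EXO, 12.9 to 21.26 FPKM in BLM and 16.27 to 85.35 FPKM in NORMAL, highest like Car3 in NORMAL1. Adipocyte progenitor genes, 12 tested with Fabp4 among them, had medians of -0.21 in BLM against NORMAL and -0.03 in EXO against BLM. Brown and beige adipocyte genes, 6 tested, included Cox8b and Cox7a1, respiratory chain subunits also made in muscle, while Ucp1, which defines brown fat, was listed at 0 in all 9 libraries.

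Among 6694 genes with a mean of at least 5 FPKM, the 8 non-members whose levels followed the mean profile of the 10 members most closely were Ppic (r = 0.978), Col6a2 (0.959), Wfdc21 (0.924), Col4a2 (0.909), Igfbp7 (0.908), Gpx8 (0.896), Gm11263 (0.893) and Apod (0.893), over 9 libraries. Ppic, which encodes cyclophilin C, had 13.19, 20.06 and 15.98 FPKM in EXO, 13.95, 12.82 and 28.97 FPKM in BLM, and 11.09, 12.01 and 19.39 FPKM in NORMAL. Col6a2 and Col4a2 encode chains of collagens VI and IV, and Apod a lipocalin. Col6a2 had 4.1, 5.52 and 5.35 FPKM in EXO, 3.49, 4.74 and 12.82 FPKM in BLM, and 3.15, 3.85 and 6.83 FPKM in NORMAL, with its highest value in BLM3 like most members. Without BLM3, 3 of the 8 genes stayed among the 8 nearest.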

How the data were processed

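RNA of mouse skin had been sequenced by the authors from strand-specific libraries of polyadenylated RNA, and the deposited values are FPKM of 55382 genes in 9 libraries. The submitters' processing notes name cutadapt, HISAT2 2.0.4, StringTie 1.3.4d and mm9. Annotation release and strand setting: not given in the sources used here. Members were matched by symbol, and identifiers through GENCODE M21 (GRCm38), where 99.6% were found. Values were used as log2(FPKM + 1) for the 14254 genes with at least 1 FPKM in at least 3 libraries. A single linear model over the 9 libraries was fitted in limma 3.58.1 under R 4.3.3, its variances following a trend on the mean, and 3 contrasts were tested, two-sided, with Benjamini-Hochberg adjustment over all genes at 0.05. With 3 libraries against 3, a permutation test of a single gene cannot go below 0.1, so none was used. The table holds no counts, so tests for counts were not used. The fit was tested on simulated data, where it missed most planted changes of the size fitted for the members. Other steps used pandas 2.3.3 and numpy 2.4.6 in Python 3.11.15.

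After removal of group means, the 9 pairs of libraries that share a number had a median correlation of 0.454 (0.173 to 0.679), against -0.238 (-0.547 to 0.203) for the 18 pairs that do not. Deviations cancel out within a group, so positive values in the first set push those in the second below 0, and the medians are not independent. From the first set the numbers were taken as pairing, which the sample titles do not state. A fit with the number as a block was added. Other settings were 4 scalings, a filter at 5 FPKM or none, a pseudocount of 0.1, no trend, robust variances, only the 6 libraries compared, and fits without single libraries or the libraries numbered 2. Beside the 10 members, the text names genes among the 4 non-members of each list with the highest mean FPKM, the 8 genes most like the members, and genes that define a cell type. Members and lists were chosen with earlier results of these data known. A log2 change of FPKM + 1 understates that of low genes such as Lep.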

Additional observations from a re-analysis of the deposited data

How the results depend on the processing

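No member passed the adjusted threshold of limma in any comparison under any of the 22 other settings, so the count of members called was 0 throughout, with adjusted p values from 0.102 to 1 in BLM against NORMAL, 0.173 to 1 in EXO against BLM and 0.441 to 1 in EXO against NORMAL. With 3 libraries a group the intervals are wide, and a count of 0 does not show that the members were unchanged. The replicate block changed no call of a member: 0 passed in each comparison, with adjusted p values of 0.202 to 0.718 in BLM against NORMAL, 0.173 to 0.942 in EXO against BLM and 0.665 to 0.951 in EXO against NORMAL. The members' median log2 change was 0.24 to 1.14 in BLM against NORMAL over all these settings. In EXO against BLM it was -0.93 without the libraries numbered 2, with and without the replicate block, and -0.69 to 0.01 when single libraries were left out. In EXO against NORMAL it was -0.17 to 0.85 without single libraries and -0.20 to 0.38 under the other settings.

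Signs of single genes turned in 1, 12 and 16 of 217, 217 and 216 refits of BLM against NORMAL, EXO against BLM and EXO against NORMAL. In EXO against BLM, rescaling to the same total gave 0.23 for Cfd, 0.11 for Pparg and 0.13 for Lpl, and Cidec was -0.12 without the libraries numbered 2, also with the replicate block. In EXO against NORMAL, Retn was -0.10 after quantile normalization and -0.13 with median-ratio factors. Without the libraries numbered 2, with and without the block, Adipoq was -0.45, Fabp4 -0.39 and Retn -0.31. Without single libraries, the range was -0.13 to 0.76 for Cidec in BLM against NORMAL. In EXO against BLM it was -0.51 to 0.60 for Cfd, -0.88 to 0.087 for Plin1, -0.44 to 0.16 for Pparg and -0.51 to 0.18 for Lpl. In EXO against NORMAL it was -0.18 to 1.01 for Adipoq, -0.30 to 1.03 for Fabp4, -0.37 to 0.64 for Retn and -0.63 to 0.12 for Lep. The cause of these turns was not tested beyond the library left out.

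The count over all genes moved more: 0 to 131 genes passed in BLM against NORMAL, 131 of them without NORMAL3 against 2 with all libraries, and 0 to 97 in EXO against BLM, 97 of them with only the 6 libraries compared. With the block, 60, 11 and 3 genes passed in BLM against NORMAL, EXO against BLM and EXO against NORMAL. Over the 4 scalings the median of all genes was -0.24 to 0.17, -0.05 to 0.46 and -0.03 to 0.20 in these comparisons. Plin1, Lep and Pparg were not tested with the filter at 5 FPKM, nor Lep in EXO against NORMAL with only 6 libraries. The level of Lep relative to the 8 genes was 0.04 in BLM against NORMAL and -1.16 in EXO against BLM with a pseudocount of 0.1, a setting chosen after seeing the data, against -0.32 and -0.39 with 1. The genes most like the members, also compared after seeing the data, kept 7 of 8 with a pseudocount of 0.1 or with the profile of the 8 genes alone.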
